A study of Mus musculus with 20 samples.

Results

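Mid1 and 7 genes tied to it by sequence or by protein partnership were measured in mouse ovarian antral follicles after iodoacetic acid in the drinking water. Mid1 was chosen by its measured difference from the control mice at both doses in these data, so its levels by group are given as a description with no test. The paralog Mid2, the interacting proteins Mid1ip1 and Igbp1, the PP2A catalytic subunits Ppp2ca and Ppp2cb, and the PP2A scaffold subunits Ppp2r1a and Ppp2r1b were taken for what they are known to bind or resemble. The 8 genes were found by symbol among the 39253 genes of the count table, and 8 of 8 were among the 17810 genes that passed the filter on low counts.

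Iodoacetic acid is a by-product of water disinfection. CD-1 mice, which are outbred, were adult females that drank it at 10 mg/L (5 mice) or at 500 mg/L (5 mice), or drank water alone (10 mice), for 35 days, and follicles were dissected in diestrus at 75 days of age. Each library was the pooled antral follicles of 1 mouse, with granulosa cells, theca cells and oocytes together. The mice at 10 mg/L and control replicates 1 to 5 belonged to experiment 2, and the mice at 500 mg/L and control replicates 6 to 10 to experiment 1, run a month apart, so a direct comparison of the doses cannot be told apart from the experiment.

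MID1 is a RING-finger ubiquitin ligase of the TRIM family that binds microtubules through a COS box, and loss of the human gene causes Opitz G/BBB syndrome, a disorder of midline development. It binds the alpha4 protein, the product of Igbp1, and through alpha4 it marks the catalytic subunit of the phosphatase PP2A for degradation. PP2A itself is built from a catalytic subunit, a scaffold subunit and 1 of many B subunits that set its targets. In oocytes PP2A is known for its part in the meiotic divisions.

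Mid1 is X-linked, and RefSeq gives it 3 start sites with a promoter window in the table used here. The windows are shown because a gene-level count adds the transcripts of all start sites, so the counts below do not say which of these promoters the RNA came from. They run from 250 bases before to 50 bases after each start on the plus strand of build GRCm38.p6, at chrX:169684949-169685248, chrX:169827909-169828208 and chrX:169879369-169879668, with that of Mid2 at chrX:140664706-140665005 for comparison. Capitals mark CG dinucleotides, the sites of DNA methylation.
Mid1 start 1: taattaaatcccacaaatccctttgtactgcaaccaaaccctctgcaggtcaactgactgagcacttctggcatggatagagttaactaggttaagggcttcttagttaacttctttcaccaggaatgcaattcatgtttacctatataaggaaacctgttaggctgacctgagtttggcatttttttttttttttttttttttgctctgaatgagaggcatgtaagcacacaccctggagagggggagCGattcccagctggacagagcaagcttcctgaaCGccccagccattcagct
Mid1 start 2: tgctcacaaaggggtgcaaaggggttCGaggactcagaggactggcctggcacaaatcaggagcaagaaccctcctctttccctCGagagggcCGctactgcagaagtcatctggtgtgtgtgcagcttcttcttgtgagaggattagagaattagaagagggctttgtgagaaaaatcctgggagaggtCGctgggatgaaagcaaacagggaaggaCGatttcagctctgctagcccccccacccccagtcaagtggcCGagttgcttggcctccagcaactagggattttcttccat
Mid1 start 3: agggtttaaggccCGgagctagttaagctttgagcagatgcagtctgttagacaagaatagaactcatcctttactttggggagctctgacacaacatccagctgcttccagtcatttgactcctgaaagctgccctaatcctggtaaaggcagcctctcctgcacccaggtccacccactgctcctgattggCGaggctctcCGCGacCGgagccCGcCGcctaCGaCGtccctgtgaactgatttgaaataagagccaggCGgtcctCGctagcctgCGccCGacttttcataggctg
Mid2: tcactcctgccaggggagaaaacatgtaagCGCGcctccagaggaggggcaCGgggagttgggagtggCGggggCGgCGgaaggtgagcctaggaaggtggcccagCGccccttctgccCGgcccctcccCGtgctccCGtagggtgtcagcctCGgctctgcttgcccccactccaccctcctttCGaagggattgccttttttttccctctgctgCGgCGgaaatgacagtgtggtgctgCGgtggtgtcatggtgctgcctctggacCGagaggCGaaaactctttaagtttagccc

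The Mid1 windows held 2, 6 and 13 CG dinucleotides in the order shown, and the Mid2 window held 17. Over 32851 RefSeq windows of 300 bases the median was 7, and 14.1%, 43.6% and 62.1% of them held fewer than Mid1 starts 1, 2 and 3. The letters TATAA, read on both strands, were in the window of Mid1 start 1 and not in those of starts 2 and 3 or in that of Mid2, and 24.9% of all windows held them. Of the 8 genes, 7 had a window. Those of Mid1ip1 and Igbp1, also on the X chromosome, held 22 and 10 CG dinucleotides, and those of Ppp2ca, Ppp2r1a and Ppp2r1b, on chromosomes 11, 17 and 9, held 34, 29 and 21.

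The depth per library, in mega (M) estimated counts, ranged over 39.9 to 51.5 M in mice given 10 mg/L, over 43.1 to 67.5 M in those given 500 mg/L, and over 41.7 to 51.0 M in controls. Levels below are in CPM, counts scaled to a common library size by TMM factors. All 8 granulosa, 5 theca and 7 oocyte markers were measured. Their summed levels overlapped between exposed mice and controls (granulosa 6350 to 13554 CPM against 7935 to 12179 CPM, theca 1823 to 6365 CPM against 1105 to 6967 CPM, oocyte 287 to 639 CPM against 296 to 566 CPM). So did the sums of the 7 endothelial markers (267 to 472 CPM in exposed mice and 260.4 to 422 CPM in controls), of the 5 stromal markers (787 to 2363 CPM in exposed mice and 902 to 2304 CPM in controls), of the 5 pericyte and smooth muscle markers (433 to 1043 CPM in exposed mice and 448 to 905 CPM in controls) and of the 5 leukocyte markers (13.6 to 34.2 CPM in exposed mice and 13.1 to 46.2 CPM in controls). The 4 luteal markers summed to 375 to 2675 CPM in exposed mice (median 922 CPM) and 240.1 to 3215 CPM in controls (median 496 CPM), and the 3 erythroid genes to 24.9 to 128 CPM in exposed mice (median 53.3 CPM) and 16.3 to 72.1 CPM in controls (median 35.4 CPM). At 10 mg/L the medians were 1171 CPM for luteal and 439 CPM for endothelial markers, against 382 and 338 CPM in the controls of experiment 2, whose highest endothelial sum was 360.4 CPM. At 500 mg/L they were 830.1 CPM for luteal and 355 CPM for endothelial markers, against 767 and 339 CPM in the controls of experiment 1. The part of these sums in the values below was not tested. The library of replicate 2 at 10 mg/L held 114 CPM of 3 RNAs that lack a poly(A) tail, where no other library held more than 2.32 CPM. Replicate 5 at 500 mg/L held 4417 CPM of 5 immediate early genes, and replicates 2, 4 and 5 at 10 mg/L held 1150, 1198 and 2110 CPM, against at most 539 CPM in any control.

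Mid1 stood at 32.0, 36.7, 47.5, 46.6 and 53.2 CPM in the mice at 10 mg/L (replicates 1 to 5). At 500 mg/L it stood at 41.1, 43.9, 28.2, 64.3 and 39.2 CPM. In the controls of experiment 1 it stood at 18.4, 27.1, 24.5, 18.0 and 17.6 CPM, and in those of experiment 2 at 17.7, 21.3, 22.8, 20.4 and 27.5 CPM. All 10 exposed mice were above all 10 controls, with the lowest exposed mouse (replicate 3 at 500 mg/L) just above the highest control (replicate 5). No other gene separated the exposed mice from the controls upward, so Mid1 was 1 of 17810 genes (0.00561%), and none did so downward. As Mid1 was chosen on its difference from the controls at both doses, nothing is read from this separation. In whole follicles a change in the number of cells of a type and a change in RNA per cell cannot be told apart.

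**Figure D1:**
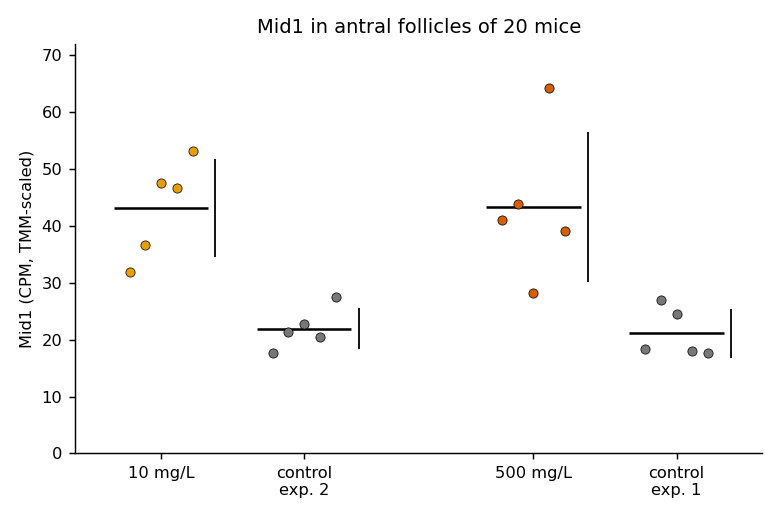
Mid1 level (CPM, TMM-scaled, axis from 0) in each of the 20 mice, 1 point per mouse, with the mean as a horizontal line and the SD as a vertical bar to its right. Each dose stands left of the controls of its own experiment, and the exposed points lie above the control points in both pairs.

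The means at the doses were close, at 43.2 ± 8.63 CPM at 10 mg/L and 43.3 ± 13.2 CPM at 500 mg/L (SD, n = 5 each), and the ranges of the doses overlapped. The control sets were close as well, at 21.1 ± 4.36 CPM in experiment 1 and 21.9 ± 3.63 CPM in experiment 2 (SD, n = 5 each). On the log2 scale and relative to its concurrent controls, Mid1 was 0.98 (SE 0.19) higher at 10 mg/L and 1.04 (SE 0.19) higher at 500 mg/L. As Mid1 was chosen on such values, its SEs and interval given here are a description and no test. The 500 mg/L value minus the 10 mg/L value was 0.06, with a 95% interval from -0.50 to 0.62 that leaves room for sizeable differences in either direction. With the experiment as a term, either dose together was 1.01 (SE 0.13) above controls, a fold of 2.01, and it was 1.05 without the libraries of replicate 2 at 10 mg/L and replicate 5 at 500 mg/L. Mid1 was also among the more variable members within a set of mice, with an SD of 0.32 on the log2 scale (16 degrees of freedom), above that of 59.3% of all genes.

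Mid2, whose protein shares the domain order of MID1 and also binds microtubules and alpha4, was not called at either dose. It stood at 27.9, 24.2, 21.4, 27.1 and 25.4 CPM at 10 mg/L, and at 22.3, 21.0, 19.2, 24.2 and 26.2 CPM at 500 mg/L. The controls of experiment 1 had 18.7, 33.2, 19.7, 27.8 and 19.9 CPM, and those of experiment 2 had 21.8, 20.6, 22.3, 21.0 and 23.2 CPM. The groups overlapped at both doses, and the highest and the lowest of the 20 mice were both controls. At either dose the log2 change was 0.07 (SE 0.10, 95% interval -0.14 to 0.27; edgeR adjusted p = 0.947). The own-control values had opposite signs, 0.21 at 10 mg/L and -0.08 at 500 mg/L, neither passing (edgeR adjusted p = 0.820 and 0.9745), and without control replicate 7, the mouse at 33.2 CPM, the value at 500 mg/L was 0.07.

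Mid1ip1, whose protein (MIG12) binds MID1, helps it bundle microtubules and also activates the fatty acid enzyme acetyl-CoA carboxylase, was the most variable of the 8. It had 236, 273, 502, 360 and 319 CPM at 10 mg/L, and 597, 573, 471, 471 and 310 CPM at 500 mg/L, reading replicates 1 to 5. The controls ran from 262 to 570 CPM with a mean of 425 ± 114 CPM (SD, n = 10), so most exposed mice lay inside the control range. The within-set SD was 0.42 on the log2 scale, above that of 70.5% of genes. The log2 change at either dose was -0.07 (95% interval -0.44 to 0.30; edgeR adjusted p = 0.977). Set against their own controls the doses stood at -0.31 and 0.17, and the difference between these effects was 0.49 (SE 0.34), which did not pass (edgeR adjusted p = 0.973).

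Igbp1, the alpha4 gene that links MID1 to PP2A, had 73.7, 67.7, 72.2, 67.9 and 69.6 CPM at 10 mg/L. At 500 mg/L it had 82.4, 93.0, 75.5, 69.3 and 81.0 CPM. The controls of experiment 1 had 77.5, 64.3, 72.0, 70.9 and 88.5 CPM and those of experiment 2 had 72.9, 66.9, 67.1, 61.7 and 62.9 CPM. Each dose overlapped the controls. Experiment 1 had the higher mean in exposed and in control mice, while single mice of the experiments overlapped in both. Against all 10 controls the 500 mg/L value was 0.19 (SE 0.08; unadjusted p = 0.0221, edgeR adjusted p = 0.477), with 5 of 5 mice above the control median. Against the controls of experiment 1 it was 0.10 (SE 0.08; edgeR adjusted p = 0.965), and at 10 mg/L against those of experiment 2 it was 0.08 (SE 0.08; edgeR adjusted p = 0.894). The controls of experiment 1 were themselves 0.17 above those of experiment 2 (unadjusted p = 0.0489, edgeR adjusted p = 0.509). At either dose, with experiment as a term, the change was 0.09 (95% interval -0.02 to 0.21; edgeR adjusted p = 0.817).

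**Figure D2:**
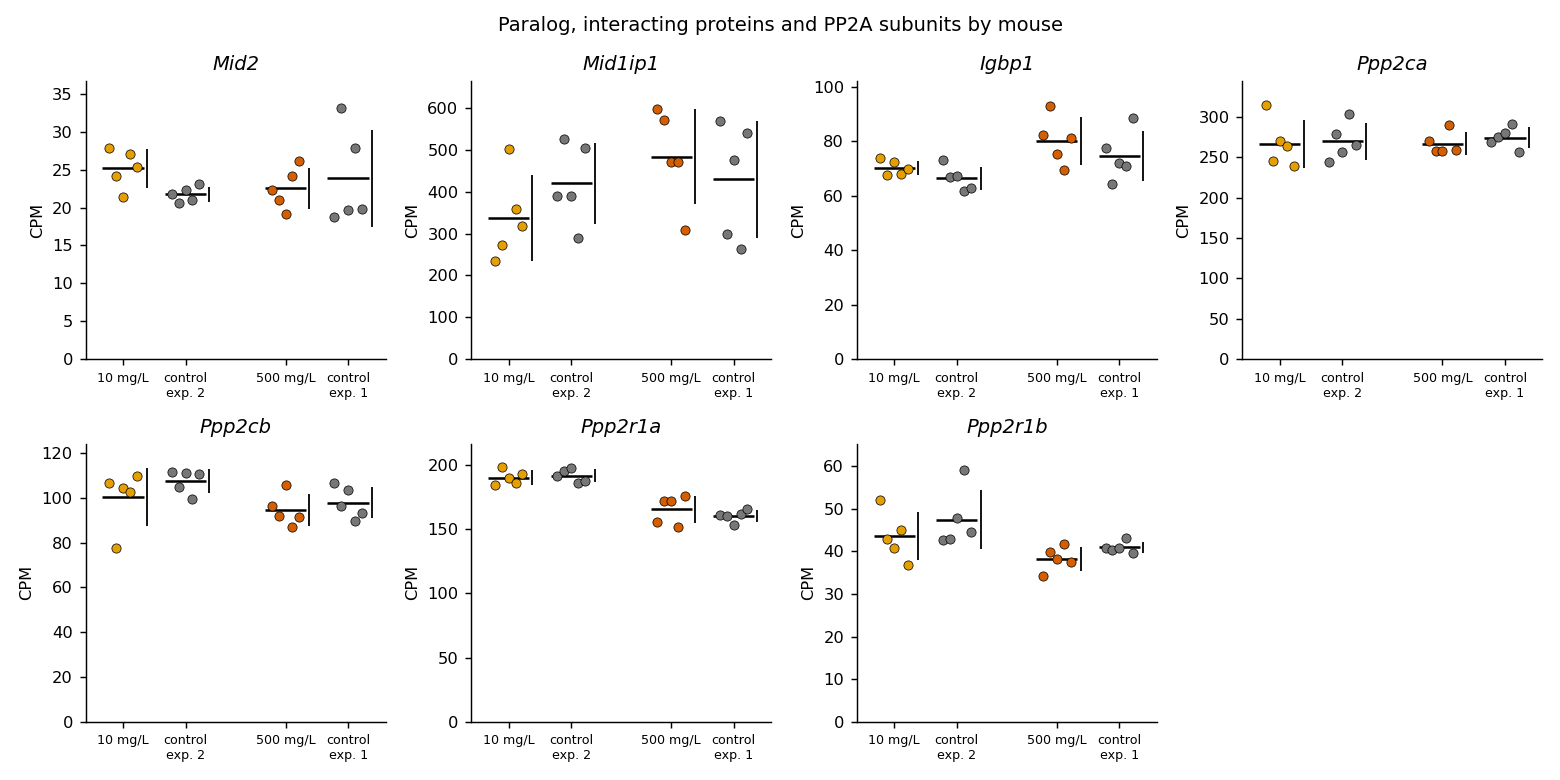
Levels (CPM, TMM-scaled, axes from 0) of the 7 other genes in each mouse, drawn as for Mid1, with the mean as a horizontal line and the SD as a vertical bar. Exposed and control points of the same experiment overlap in every panel, and the Ppp2r1a panel steps down in experiment 1 for exposed and control mice alike.

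Neither catalytic subunit of PP2A was called at either dose. Ppp2ca, the alpha isoform, averaged 267 ± 29.7 CPM at 10 mg/L (n = 5), 267 ± 14.03 CPM at 500 mg/L (n = 5) and 272 ± 17.7 CPM in controls (n = 10; all SD). Its highest mouse was replicate 1 at 10 mg/L, at 315 CPM, next to a control at 304 CPM. The log2 change at either dose was -0.03 (95% interval -0.13 to 0.08; edgeR adjusted p = 0.964). Ppp2cb, the beta isoform, averaged 100.3 ± 12.88 CPM at 10 mg/L (n = 5), 94.4 ± 7.18 CPM at 500 mg/L (n = 5) and 103 ± 7.74 CPM in controls (n = 10; all SD), with a change of -0.08 (95% interval -0.19 to 0.04; edgeR adjusted p = 0.859). Replicate 2 at 10 mg/L, the library with RNAs lacking a poly(A) tail, was lowest for Ppp2cb at 77.8 CPM. Against the controls of experiment 2 the 10 mg/L value of Ppp2cb was -0.10, and it was -0.02 when that library and replicate 5 at 500 mg/L were left out.

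No exposure call was made for the scaffold subunits, and Ppp2r1a differed between the control sets. Ppp2r1a, the main scaffold, had 184, 198, 190.2, 186 and 193 CPM at 10 mg/L, against 192, 196, 198, 186 and 188 CPM in the controls of experiment 2. It had 156, 172, 172, 152 and 176 CPM at 500 mg/L, against 161, 160.3, 153, 162 and 166 CPM in the controls of experiment 1. Between exposed mice and their own controls the values overlapped, while every control of experiment 1 lay below every control of experiment 2. The own-control log2 values were -0.01 at 10 mg/L and 0.04 at 500 mg/L (SE 0.05 each; edgeR adjusted p = 0.985 and 0.965). Either dose together gave 0.02 (95% interval -0.05 to 0.09; edgeR adjusted p = 0.968), the narrowest interval of the 8 genes. Its within-set SD of 0.06 on the log2 scale was undercut by 0.539% of genes.

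The controls of experiment 1 lay 0.26 below those of experiment 2 for Ppp2r1a (SE 0.05; edgeR adjusted p = 0.0314), the only one of the 7 partners to pass between control sets, where 28 of 17810 genes passed (0.157%). Its control sets did not overlap, and the same was true, with experiment 1 the lower, of 1.66% of all genes (3.1% in either direction). The unadjusted p was under 0.05 for 3 of the 7 partners between control sets, against 9.78% of all genes. The call did not hold when control replicates 1, 2, 3, 5, 6, 7, 8 or 9 were left out singly (edgeR adjusted p = 0.0577 to 0.102), although the log2 value stayed between -0.27 and -0.24. Without the filter on low counts the edgeR adjusted p was 0.106, and with only the control mice in the fit it was 0.0981. The month between the experiments and anything else that differed between them cannot be told apart here.

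Ppp2r1b, the lesser scaffold, had 52.1, 43.0, 40.8, 45.1 and 36.9 CPM at 10 mg/L and 34.1, 39.9, 38.2, 41.7 and 37.5 CPM at 500 mg/L. The controls of experiment 1 averaged 40.98 ± 1.29 CPM and those of experiment 2 averaged 47.4 ± 6.90 CPM (SD, n = 5 each), with control replicate 4 alone at 59.2 CPM. The groups overlapped at each dose. Against all controls the 500 mg/L value was -0.21 (unadjusted p = 0.0305, edgeR adjusted p = 0.524), with 5 of 5 mice below the control median, and against its own controls it was -0.10 (edgeR adjusted p = 0.965). At either dose the change was -0.11 (95% interval -0.24 to 0.02; edgeR adjusted p = 0.806). Per kilobase of the longest annotated coding transcript (2.41 kb and 3.647 kb), Ppp2r1a made up 86.9 ± 1.72% of the scaffold RNA at 10 mg/L, against 85.97 ± 1.93% in the controls of experiment 2, and 86.7 ± 1.202% at 500 mg/L, against 85.6 ± 0.552% in the controls of experiment 1 (SD, n = 5 each). These shares were not tested, and they depend on the length taken for Ppp2r1b, whose shortest annotated coding transcript is 1.523 kb.

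**Figure D3:**
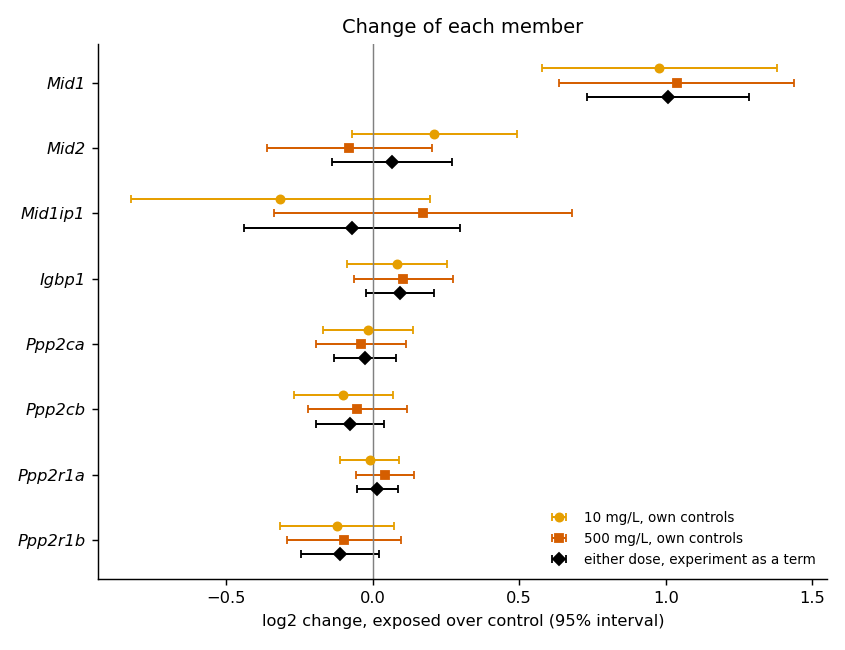
Log2 change of each gene, exposed over control, with 95% intervals from the edgeR fit, for 10 mg/L and 500 mg/L against the controls of their own experiment and for either dose with experiment as a term. The intervals of the 7 genes other than Mid1 cross 0. The Mid1 points lie near 1, and as Mid1 was chosen on these values, its intervals are a description and no test.

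Counted over the 7 partners, 0 passed at an edgeR adjusted p under 0.05 at 10 mg/L against all controls, where 1 of all genes passed (0.00561%), and 0 at 500 mg/L, where 2 passed (0.0112%). The gene counted at 10 mg/L was Mid1, and those at 500 mg/L were Mid1 and Tmsb15b1; as Mid1 was chosen on these values, nothing is read from its being counted, and the count at 10 mg/L was 0 without the filter on low counts, with limma-voom and when most single mice were left out. Before adjustment, 0 of the 7 were under p = 0.05 at 10 mg/L (6.22% of all genes were) and 2 of the 7 at 500 mg/L (8.69%), namely Igbp1 and Ppp2r1b. Against own controls 0 partners passed at either dose, as did 0 of all genes (0%), and at an unadjusted p under 0.05 it was 0 of 7 at both doses, with 6.45% of all genes at 10 mg/L and 5.19% at 500 mg/L. With experiment as a term 0 of 7 passed (0.0112% of all genes) and 0 had an unadjusted p under 0.05 (6.81%). For the difference in effect between the doses 0 of the 7 passed (0 of all genes passed, 0%, and 5.41% had an unadjusted p under 0.05). Of the 7, 0 had groups without overlap, which 0.0955% of all genes had at 10 mg/L and 0.331% at 500 mg/L against all controls, and 1.04% and 0.932% against own controls. DESeq2 and limma-voom also called 0 of the 7 in each of these comparisons. In the authors' deposited table no partner had an adjusted p under 0.05 at either dose against controls, and the lowest was 0.0622, for Ppp2r1b at 500 mg/L with a signed fold of -1.14. For the same gene and comparison the edgeR adjusted p was 0.524. The authors' values came from their own tests, so the adjusted p-values are not directly comparable. The share of all genes passing in their table was not computed.

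The next question was whether the partners tracked Mid1 from mouse to mouse within exposed mice and within controls. Exposed and control mice were apart in Mid1, so these correlations were taken within each and not on uncentred values of all 20 mice. Over the 10 exposed mice Pearson's r with Mid1 was 0.20 for Mid2, 0.27 for Mid1ip1, -0.22 for Igbp1, -0.05 for Ppp2ca, -0.13 for Ppp2cb, -0.22 for Ppp2r1a and -0.16 for Ppp2r1b. Over the 10 controls it was 0.39, -0.01, -0.65, 0.14, 0.27, 0.01 and 0.02 for the same genes in the same order. Over all other genes the middle 90% of r values spanned -0.496 to 0.499 in exposed mice and -0.587 to 0.570 in controls, and Igbp1 in controls was the one partner outside that span. Spearman's rho ran from -0.28 to 0.28 in exposed mice (permutation p from 0.426 to 1.00) and from -0.67 to 0.33 in controls (permutation p from 0.0386 to 0.892). Of the 14 relations, 0 had an adjusted p under 0.05 by permutation (100000 resamples, two-sided, Benjamini-Hochberg over the 14).

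**Figure D4:**
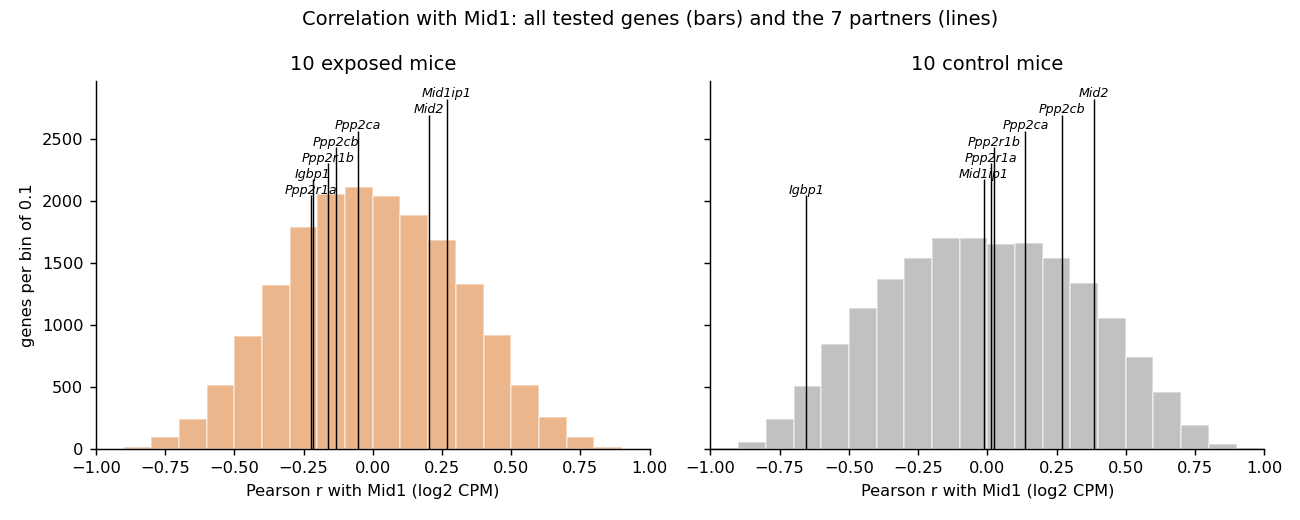
Pearson r with Mid1 in log2 CPM over the 10 exposed mice (left) and the 10 control mice (right): bars count all tested genes in bins of 0.1, and vertical lines mark the 7 partners. All partner lines but that of Igbp1 in controls stand within the bulk of the genes.

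For Igbp1 in exposed mice r was -0.22 (permutation p = 0.542, n = 10) and rho was -0.28 (permutation p = 0.426), and r was -0.26 centred on the dose. In controls Igbp1 had its strongest value, with Pearson's r = -0.65 (permutation p = 0.0368, adjusted 0.515) and Spearman's rho = -0.67 (permutation p = 0.0386, adjusted 0.541; n = 10). Control replicates 7 and 5, highest in Mid1 at 27.1 and 27.5 CPM, had 64.3 and 62.9 CPM of Igbp1, while control replicate 10, lowest in Mid1 at 17.6 CPM, had the highest Igbp1 of the controls at 88.5 CPM. Without the pair of mice farthest from the Mid1 median (replicates 5 and 7) r was -0.52 (permutation p = 0.195, n = 8), and with single controls left out it ran from -0.76 to -0.59. Centred on each experiment, it was -0.70 (permutation p = 0.0209, adjusted 0.293).

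For Mid2 in exposed mice r was 0.20 (permutation p = 0.574; rho = 0.01, permutation p = 1.00), and -0.33 without replicates 3 and 4 at 500 mg/L, the lowest and highest in Mid1. In controls it had the highest r of the 7, 0.39 (permutation p = 0.281, adjusted 0.972; rho = 0.33, permutation p = 0.350). Control replicate 7 was high in both genes, and without it r was 0.00. Without control replicates 5 and 7 together r was -0.22 (n = 8). Over all alternatives run it ranged from -0.22 to 0.62, so the value depended on which mice were included. For the remaining 5 genes the unadjusted permutation p of the uncentred r ran from 0.442 upward. Their r without the pair of farthest mice ran from -0.63 (Ppp2ca, permutation p = 0.0867) to 0.47 (Mid1ip1, permutation p = 0.244) in exposed mice and from 0.09 to 0.37 in controls (n = 8 each). Ppp2r1a, which differed between the experiments, had stronger values once centred. Centred on dose, its r was -0.47 in exposed mice (permutation p = 0.171, adjusted 0.783). Centred on experiment, it was -0.44 in controls (permutation p = 0.203, adjusted 0.783).

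**Figure D5:**
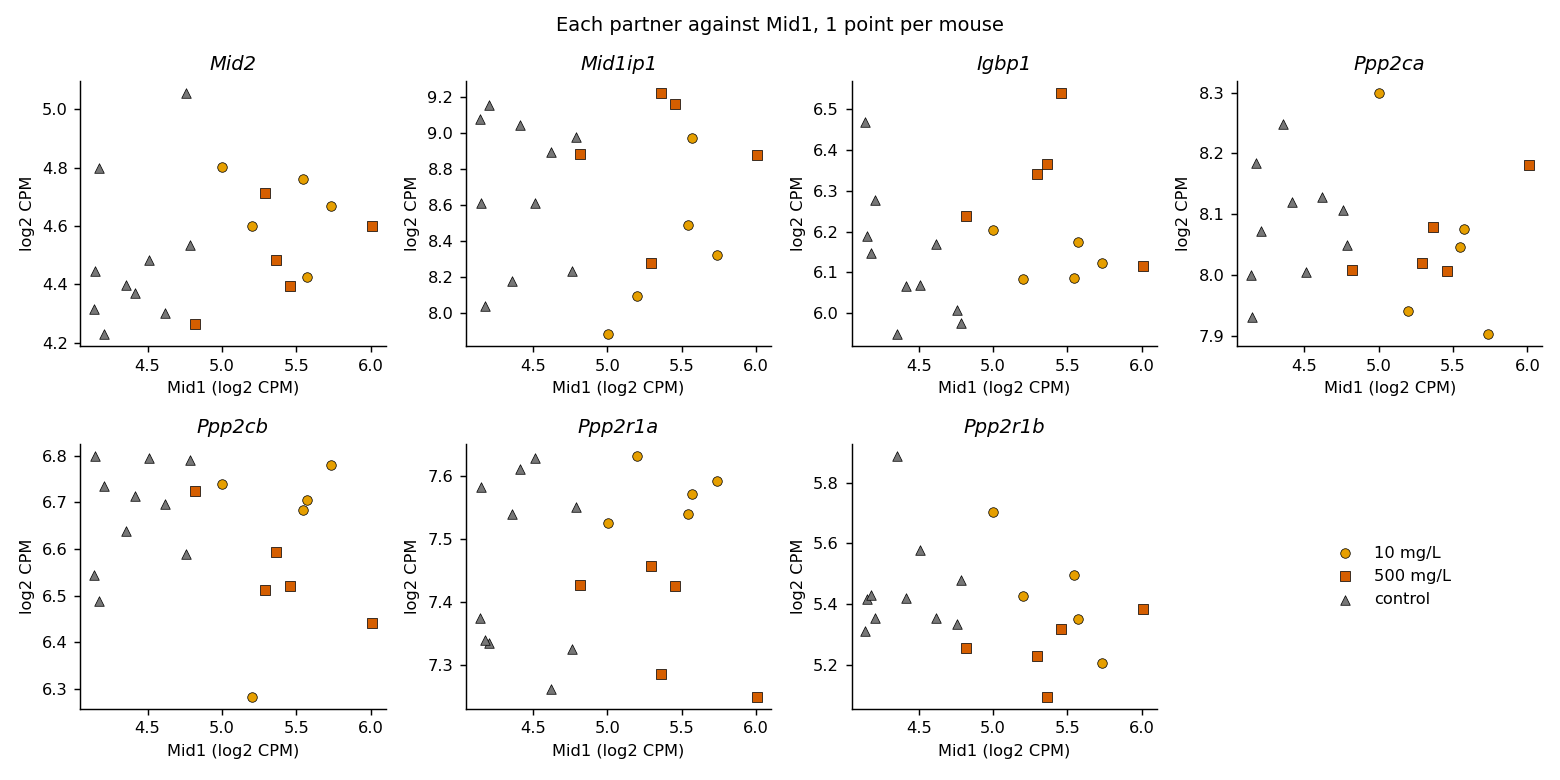
Log2 CPM of each partner against that of Mid1, 1 point per mouse, with circles at 10 mg/L, squares at 500 mg/L and triangles in controls. The exposed points are shifted to the right in every panel, with no matching shift up or down, and the Igbp1 control triangles fall from left to right.

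Among the 8 genes themselves all 28 pairs were compared, each value centred on the mean of its dose or control set and permuted within these sets (20 mice). The pairs were chosen after seeing the data. The share of all gene pairs with r values as strong as those below was not computed. One pair passed: Ppp2ca and Ppp2r1a, the catalytic and scaffold subunits of the PP2A core, ran in opposite directions with r = -0.59 (permutation p = 0.00166, adjusted 0.0465). Without the 2 mice farthest from the Ppp2ca median r was -0.58, and mice far out in Ppp2r1a were not left out. The rank measure did not pass for that pair (rho = -0.64, permutation p = 0.00293, adjusted 0.0820). Ppp2ca and Ppp2r1b ran together with r = 0.74 (permutation p = 0.00468, adjusted 0.0571), which dropped to 0.46 without the 2 mice farthest from the Ppp2ca median. Mid2 and Mid1ip1 ran opposite, with r = -0.69 (permutation p = 0.00612, adjusted 0.0571; rho = -0.68, adjusted 0.0879). For Mid1 and Igbp1 the centred r over 20 mice was -0.45 (permutation p = 0.0918, adjusted 0.411). For Mid1 and Ppp2r1a it was -0.46 (permutation p = 0.122, adjusted 0.411), and -0.16 without the 2 mice farthest from the Mid1 median.

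Genes were also ranked by likeness to Mid1, as the smaller of the r values in exposed mice and in controls, and the top 6 are named. None of the 6 was a partner, which says little about the partners with 17809 genes ranked. In descending order these 6 were Ddx58 (r = 0.75 in exposed mice and 0.78 in controls), Rbm24 (0.86 in exposed mice and 0.70 in controls), Plppr2 (0.69 in exposed mice and 0.74 in controls), Nrros (0.68 in exposed mice and 0.67 in controls), Ifi35 (0.67 in exposed mice and 0.74 in controls) and Acat2 (0.83 in exposed mice and 0.66 in controls). They are given as a description, chosen as the highest of 17809 genes, and Rbm24 averaged 0.279 CPM in exposed mice and 0.377 CPM in controls, so counting error is large there. Ddx58 encodes the RNA sensor RIG-I, and Acat2 a thiolase of the cytosol. None passed with exposure (log2 at either dose from -0.43 to 0.11, lowest edgeR adjusted p = 0.816). In the same ranking Mid2 stood at 2054 (11.5% of genes ranked higher) and Igbp1 at 17130 of 17809.

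No listed gene of the wider PP2A system passed at either dose, where 2 of 17810 genes passed (0.0112%). A count of 0 in lists of this size is near that share. Of 15 B subunit genes, 15 were tested, 0 passed at either dose and 8 had a positive sign, with a median log2 change of 0.02. Ppp2r3a, a calcium-binding B subunit, stood at 0.17 (SE 0.08; edgeR adjusted p = 0.735), Ppp2r5c at 0.09 (SE 0.04; edgeR adjusted p = 0.764) and Ppp2r5e, like Ppp2r5c a B56 subunit, at -0.09 (SE 0.05; edgeR adjusted p = 0.770). For 11 genes of PP2A assembly and inhibition 0 passed, 3 were positive and the median was -0.03. Mastl, the kinase that, through Ensa and Arpp19, holds PP2A down during mitosis and meiosis, stood at 24.2 ± 4.33 CPM in exposed mice and 20.05 ± 2.43 CPM in controls (SD, n = 10 each), which is 0.27 on the log2 scale (SE 0.09; unadjusted p = 0.00932, edgeR adjusted p = 0.630). For 10 genes of the sister phosphatases PP4 and PP6, whose catalytic subunits alpha4 also binds, 0 passed, 4 were positive and the median was -0.02, with Ppp4c at -0.08 (SE 0.05; edgeR adjusted p = 0.844). Over all genes the median at either dose was 0.00294, 51.0% were positive and 6.81% had an unadjusted p under 0.05.

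No relative or target of MID1 on the lists passed, which is near the share of all genes at either dose (0.0112%). An unadjusted p under 0.05 was reached by 6.81% of all genes. Of 7 further TRIM genes with a COS box 4 were tested, 0 passed and 0 were positive, with a median of -0.32. Trim9, a ligase known from neurons, had 10.54 ± 4.43 CPM in exposed mice and 15.97 ± 7.09 CPM in controls (SD, n = 10 each), a log2 change of -0.60 (SE 0.27; unadjusted p = 0.0347, edgeR adjusted p = 0.720). Trim36 and Trim46 stood at -0.12 and -0.07 (edgeR adjusted p = 0.922 and 0.968), and Trim54, Trim55 and Trim67 were under the filter. Of 10 mTOR and hedgehog genes, pathways that the human MID1 complex is known to act on, 0 passed, 5 were positive and the median was 0.00, with Rptor, the scaffold of mTOR complex 1, at 0.07 (SE 0.04; edgeR adjusted p = 0.816) and Gli2, a hedgehog transcription factor, at -0.17 (SE 0.18; edgeR adjusted p = 0.924).

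Mid1 lies at the end of the mouse X chromosome that holds the pseudoautosomal region, and 14 genes of that end were set beside it. Of these 12 were tested, 0 passed (0.0112% of all genes did at either dose), 4 were positive and the median was -0.04. Erdr1 stood at 139 ± 54.0 CPM in exposed mice and 112 ± 23.3 CPM in controls (SD, n = 10 each), or 0.28 on the log2 scale (SE 0.16, edgeR adjusted p = 0.799), and Hccs, a mitochondrial heme lyase, at -0.08 (SE 0.06; edgeR adjusted p = 0.877). Of 11 genes of X inactivation or escape from it 10 were tested, 0 passed, 7 were positive and the median was 0.05. An unadjusted p under 0.05 was reached by 2 of the 10, against 6.81% of all genes. Jpx, an RNA that activates Xist, stood at 2.45 ± 0.29 CPM in exposed mice and 2.01 ± 0.28 CPM in controls (SD, n = 10 each), or 0.28 on the log2 scale (SE 0.10; unadjusted p = 0.0112, edgeR adjusted p = 0.633). Ddx3x, an RNA helicase that escapes inactivation, stood at 0.16 (SE 0.07; unadjusted p = 0.0414, edgeR adjusted p = 0.723) and Pbdc1 at -0.10 (SE 0.05; edgeR adjusted p = 0.779).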

How the data were processed

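Per the labels, stranded poly(A) libraries were sequenced from 1 end and 3' adaptors were removed. The submitters' processing notes list Salmon 1.2.0, edgeR, limma and the build GRCm39. Which annotation was used, and how transcripts were summed to genes, is not given in the sources. The authors deposited estimated counts per gene, not normalised, in which near-identical genes such as paralogs and pseudogenes can share reads. A second deposited table holds the authors' own tests: per its file headers, average log2 expression, raw and adjusted p-values, an F score and signed fold changes. Only its values for the 8 genes were used.

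Counts were rounded and analysed with edgeR 4.0.16 in R 4.3.3: TMM scaling, expression filter by group, robust quasi-likelihood F-test, two-sided, Benjamini-Hochberg over 17810 genes at 0.05. Models had 1 mean per group, 1 mean per group and experiment, or exposure plus experiment. Correlations used log2 CPM (prior count 2).

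Members, lists and tests were chosen with earlier results of these data known. The 28 member pairs and the exclusion of both libraries that stand apart were chosen after seeing the data. The rule named the 6 genes most like Mid1 and, per list, up to 3 genes of at least 1 CPM with the smallest p at either dose. Each alternative changed 1 choice: DESeq2 1.42.0 or its size factors, limma-voom 3.58.1, no filter, only the groups compared, replicate block, and each mouse left out. Promoter windows are from RefSeq (GRCm38.p6) and transcript lengths from GENCODE. No 2 libraries of a group were copies (chi-square per gene at least 21.8 over 65 pairs).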

Additional observations from a re-analysis of the deposited data

Results flagged for a closer look

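Each of the 8 genes was checked for a mouse far from the rest of its group in 40 groups of mice, and 2 were found, where chance gives about 2.0. Ppp2cb in replicate 2 at 10 mg/L was at 77.8 CPM, below the next mouse of its dose at 102.8 CPM. The same library held 114 CPM of RNAs lacking a poly(A) tail, and their part in the value was not tested. Ppp2r1b in control replicate 4 was at 59.2 CPM, above the next control at 47.7 CPM.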

How the results depend on the processing

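The 7 partners gave 1099 log2 values in the comparisons of exposed mice under 27 alternatives, of which 0 had an adjusted p under 0.05 and the lowest was 0.124. The Mid1 log2 value stayed between 0.92 and 1.07 at either dose, 0.89 and 1.07 at 10 mg/L and 0.84 and 1.16 at 500 mg/L against own controls. The partner count between control sets, 1 as reported, was 0 without the filter and 0 with only the groups compared, and 0 to 1 when a mouse was left out (Ppp2r1a passed in 12 of 20 fits).

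Counts over all genes moved more, and the cause was not tested. At 10 mg/L against all controls, 1 gene became 0 without the filter, 0 under the replicate block, 8 with DESeq2, 0 with limma-voom, 0 without both libraries that stand apart, and 0 to 1 when a mouse was left out. At 500 mg/L against all controls, 2 became 17 under the replicate block, 84 with DESeq2, 0 with limma-voom, 1 without both libraries, and 0 to 3 when a mouse was left out. Against own controls DESeq2 called 31 at 10 mg/L and 5 at 500 mg/L, where edgeR called 0, and 15 for the difference between the doses. At either dose, 2 became 16 with DESeq2, 1 with limma-voom, and 1 to 3 when a mouse was left out. Between control sets, 28 became 11 without the filter, 9 with only the groups compared, 193 with DESeq2, and 3 to 50 when a mouse was left out.

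Same-numbered mice of different groups were linked only by that number (correlations from -0.128 to 0.228), so the replicate block is no pairing. For the 500 mg/L own-control comparison the block could not be fitted because control replicates 6 to 10 share no number with the exposed mice. The sample titles also carry codes whose first characters are shared by some mice of the same group. What these codes stand for is not known here, and no fit or permutation took them into account. No correlation with Mid1 had an adjusted p under 0.05 under any alternative run, the lowest being 0.185 for Igbp1 in controls.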
